A study of Oryza sativa Japonica Group with 6 samples.

Results

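Genes of gibberellin synthesis, inactivation and signalling were followed in rice leaf blades as 10 loci of 28855 represented on a single-colour oligonucleotide array. The rule that named the loci used no measured value, but the loci were chosen with earlier results of these data known. Every array probe of each locus was read, 26 probes in all. The enzymes were CPS1, KS1, KO2, KAO, GA20ox1, GA20ox2 and GA3ox2 for synthesis and GA2ox3 for inactivation, and the signalling genes were the repressor SLR1 and the receptor GID1. The 6 arrays comprised 3 labelled wild type and 3 labelled Line 13, and all were of the japonica cultivar Nipponbare, untreated, grown from seed in a growth chamber at 25 °C and sampled as fourth-leaf blades at the four-leaf stage. Line 13 was described as a transgenic, linalool-accumulating line that overexpresses a linalool synthase. It was a single line, the sources used here name neither its promoter nor an empty-vector control, and each sample pooled at least 3 plants.

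Gibberellins are diterpenoid hormones that drive stem and leaf elongation. CPS1 and KS1 fold geranylgeranyl diphosphate in successive steps into ent-kaurene, KO2 and KAO oxidise it, and the 20-oxidases and 3-oxidases finish the active hormone, which 2-oxidases such as GA2ox3 inactivate. The active hormone binds the receptor GID1, and the complex leads to destruction of the DELLA protein SLR1, which otherwise holds growth back. In rice, active gibberellin is known to lower the transcripts of GA20ox2 and GA3ox2 through feedback.

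The arrays of the 2 labels differed widely. Of 22232 loci and locus-free probes tested, 54.7% were called different at adjusted p under 0.05 (limma with Benjamini-Hochberg adjustment), 26.8% higher and 28% lower on the arrays labelled Line 13. Os02g0121700, the linalool synthase locus, gave -3.32, -0.92 and -1.50 in wild type and -6.52, -5.84 and -3.65 in Line 13 (replicates 1 to 3, log2 of signal over the array's 75th percentile). The difference was -3.43 (SE 0.90, adjusted p = 0.0185), and the locus passed the filter on dim signals through the wild-type arrays alone. The locus went against the label, so directions below are between labels. The sources used here do not say whether that probe can read the transgene. Signals correlated at 0.976 to 0.991 across genes among wild-type arrays, at 0.902 to 0.979 among Line 13 arrays and at 0.603 to 0.740 between the labels. All wild-type arrays lay on 1 slide scanned on 1 date and all Line 13 arrays on another such pair, so slide, scan and group cannot be told apart.

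Replicate 1 of the arrays labelled Line 13 stood apart in how it read the parts of a transcript. In 243 loci with both a probe inside the coding sequence (named CDS on the array) and a probe reaching the 3' end (CDS+3'UTR), all well above background on the 6 arrays, the coding probe was compared with the 3' probe within each array. Relative to the wild-type mean of the same locus, the median difference was -1.12 on the log2 scale on Line 13 replicate 1, against -0.10 on replicate 2 and 0.11 on replicate 3. Wild-type arrays lay between -0.02 and 0.02. In 358 loci with a 5'UTR+CDS probe, the corresponding medians were -0.82, -0.15 and 0.12 on Line 13 replicates 1 to 3. In the median, coding and 5' probes were dimmer than 3' probes of the same locus on all 6 arrays. They lay furthest below their wild-type level on Line 13 replicate 1. That array also carried the lowest 75th percentile of signal, 325 against 720 to 1559 on the other arrays. The sources used here hold no RNA integrity values. Results for the gibberellin genes are therefore given with and without that array where it mattered.

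**Figure D1:**
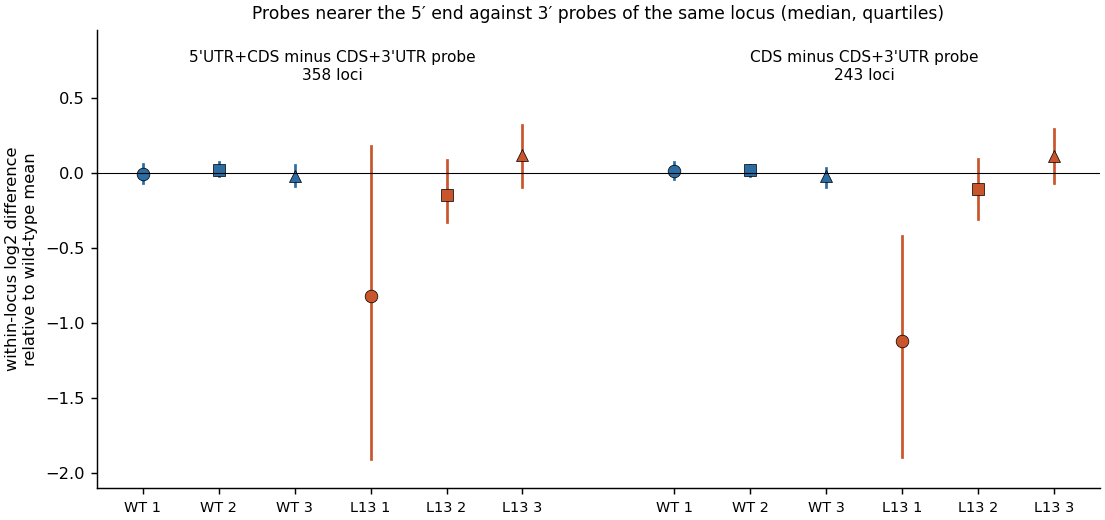
Within-locus log2 difference between a probe nearer the 5' end and a CDS+3'UTR probe of the same locus on each array, relative to the wild-type mean of the locus. Symbols are medians over 358 loci (left) or 243 loci (right), vertical lines span the quartiles, WT and L13 stand for arrays labelled wild type and Line 13, and Line 13 replicate 1 lies lowest in both panels, at -0.82 and -1.12.

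The gibberellin genes did not move as a block. All 10 loci passed the filter on dim signals, CPS1 through the arrays labelled Line 13 alone, and 3 were higher, 2 lower and 5 not called on the arrays labelled Line 13. GA3ox2, SLR1 and the dim CPS1 were called higher, and KS1 and GA20ox2 fell. The shares, 3 of 10 and 2 of 10, lie near the 26.8% and 28% of all loci called higher and lower. The median log2 difference of the 10 loci was -0.04, beside -0.07 for all loci, and the median size of the difference was 0.73, beside 0.95. In 6 of the 10 the values of the labels did not overlap, beside 68.5% of all loci. In this bulk tissue, fewer cells of a type and less RNA per cell cannot be told apart.

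**Figure D2:**
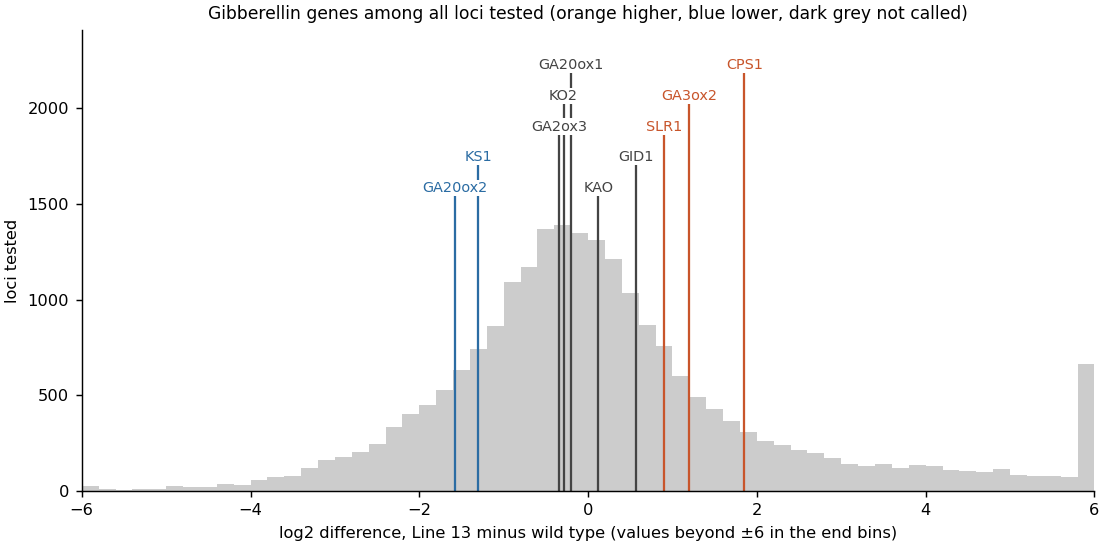
Histogram of the log2 difference, arrays labelled Line 13 minus arrays labelled wild type, over all 22232 loci and locus-free probes tested, with the 10 gibberellin genes as vertical lines. The genes lie from -1.58 (GA20ox2) to 1.85 (CPS1), within the bulk of the distribution, and the height of a line has no meaning.

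**Figure D3:**
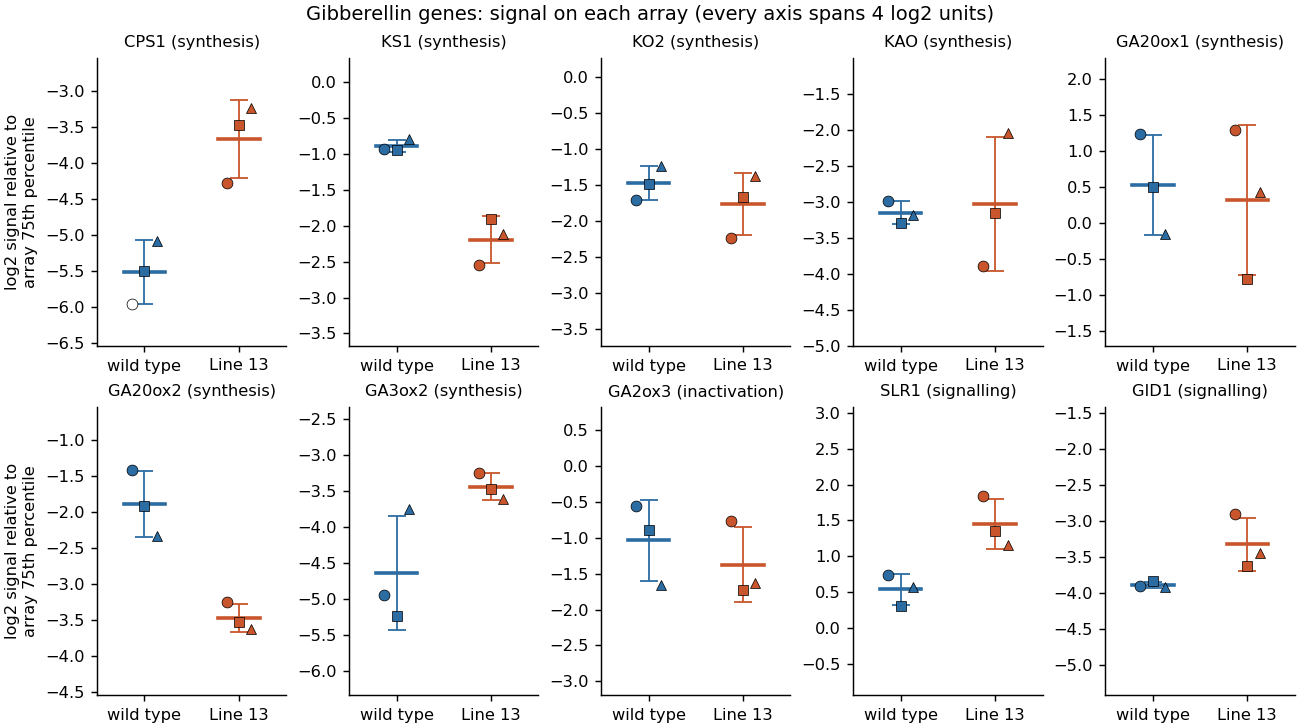
Log2 signal, scaled to the array's 75th percentile, for each gibberellin gene on the 3 arrays labelled wild type (blue) and the 3 labelled Line 13 (orange). Circles, squares and triangles are replicates 1, 2 and 3, lines and bars are mean and SD, and the open circle marks the CPS1 value that was not well above background. CPS1, GA3ox2 and SLR1 lie higher and KS1 and GA20ox2 lower on all 3 Line 13 arrays.

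CPS1 (Os02g0278700) makes ent-copalyl diphosphate, the first committed precursor of gibberellins in rice. Values are log2 signals after division by the array's 75th percentile, in the order of replicates 1 to 3. CPS1 gave -5.96, -5.49 and -5.08 in wild type and -4.27, -3.47 and -3.24 in Line 13. Every Line 13 array lay above every wild-type array, and the gene was dim, since 1 of the 3 wild-type spots did not clear background. The difference was 1.85 (SE 0.36, n = 3 and 3), 3.61-fold, with adjusted p = 0.00565. CPS1 entered the test through the arrays on which it was high, so its call in the filtered set is partly fixed by the filter. With no filter on dim probes the difference was the same and adjusted p was 0.00971. It was 1.22 under quantile normalization and 0.72 under a normexp background correction, called in both. The latter added an offset of 50, which shrinks the log2 differences of dim signals such as CPS1 (processed signal 11.6 to 141). Adjusted p for CPS1 ran from 0.00208 to 0.0300 in its 15 alternatives. By exact permutation (two-sided), p was 0.1 here and for each other locus whose labels did not overlap, which is the floor for 3 against 3 arrays.

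KS1 (Os04g0611800), the kaurene synthase that takes up the CPS1 product, moved the other way. It gave -0.94, -0.95 and -0.79 in wild type and -2.55, -1.91 and -2.12 in Line 13. The wild-type values lay within 0.16 of each other and all Line 13 values lay below them. The fall was 1.30 on the log2 scale, 2.46-fold (SE 0.22, adjusted p = 0.00358). All 3 probes of the locus were lower, between -1.50 and -1.16, and the CDS probe gave the largest fall. Without Line 13 replicate 1 the 3 probes came together, at -1.03 to -1.15, and all stayed called.

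KO2 (Os06g0570100), the kaurene oxidase, and KAO (Os06g0110000), the kaurenoic acid oxidase, were not called. KO2 read -1.70, -1.49 and -1.24 in wild type and -2.24, -1.67 and -1.38 in Line 13, and the labels overlapped. Its difference was -0.29 (95% confidence interval -0.96 to 0.38, adjusted p = 0.404). A second KO2 probe, of the 5'UTR+CDS, gave -1.06 with all arrays and -0.07 without Line 13 replicate 1, where the spot had a processed signal of 1.53 against 27.2 to 53.3 elsewhere. The reference gene table lists KO1 and KO2 as names of 1 gene, and the array files hold no probe sequences. Whether the probes read KO2 alone is therefore not known, and the KO2 values are uncertain. KAO read -2.98, -3.30 and -3.18 in wild type and -3.89, -3.16 and -2.05 in Line 13. The Line 13 values spanned 1.84 and enclosed all wild-type values, so the difference of 0.12 had a wide interval, -0.98 to 1.22 (adjusted p = 0.835). Its sign turned under array-median scaling (-0.19) and quantile normalization (-0.29), and without Line 13 replicate 3 (-0.37).

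The 20-oxidase genes encode the enzymes that carry the precursors through several oxidations. GA20ox2 (Os01g0883800), known as SD1, whose loss gives semidwarf rice, fell. It gave -1.42, -1.91 and -2.33 in wild type and -3.25, -3.53 and -3.63 in Line 13. The labels did not overlap, and the 3 Line 13 values lay within 0.37 of each other. The gene was 2.99-fold lower, a log2 difference of -1.58 (SE 0.28, adjusted p = 0.00402). It stayed called in all 16 alternatives, from -1.96 to -1.08.

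GA20ox2 was the locus with most probes, along with GA2ox3. Of its 5 probes, 2 in the 3'UTR and 1 in the coding sequence were lower, with differences of -1.58, -1.42 and -1.26, and a dim 3'UTR probe could not be tested. The remaining coding probe gave -0.12 (SE 0.62, adjusted p over probes = 0.880). Its processed signal was 46.0, 41.6 and 33.4 in wild type and 10.9, 175 and 20.1 in Line 13. The high value on replicate 2 was seen on that probe alone, as the other coding probe read 24.0 there, so the probes of this gene disagree on 1 array.

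GA20ox1 (Os03g0856700) was not called. It read 1.23, 0.49 and -0.16 in wild type and 1.30, -0.78 and 0.43 in Line 13, with full overlap and a spread within labels larger than the difference of -0.21 (95% confidence interval -1.63 to 1.22, adjusted p = 0.784). A second probe of the locus followed it, at -0.14, while a dimmer one gave 0.37. Without Line 13 replicate 1 these became -0.70, -0.62 and 0.86, and the dimmer probe was then called higher (adjusted p over probes = 0.00980). The sign for GA20ox1 therefore depends on the probe. It also turned with the mean of its probes (0.0068), on leaving out replicate 1 of wild type (0.15) or replicate 2 of Line 13 (0.34).

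GA3ox2 (Os01g0177400), known as D18, carries out the last step to active hormone. It gave -4.94, -5.23 and -3.74 in wild type and -3.24, -3.47 and -3.61 in Line 13. The Line 13 arrays lay above all wild-type arrays, but wild-type replicate 3 came close to the lowest of them. The rise was 1.20, 2.30-fold (SE 0.40, adjusted p = 0.0427). All 3 probes of the locus, each in the coding sequence, were higher, by 1.20 to 1.56. The call was kept in 6 of 16 alternatives, with adjusted p from 0.00579 to 0.242, and it was lost without any 1 array other than wild-type replicate 3. The difference was above 0 in all 16, and lowest under quantile normalization (0.62) and the normexp background correction with its offset of 50 (0.53).

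GA2ox3 (Os01g0757200), which hydroxylates active gibberellin and its precursor at the 2 position and so inactivates them, was not called by the probe read for the locus. That probe gave -0.56, -0.89 and -1.66 in wild type and -0.77, -1.72 and -1.63 in Line 13, overlapping, with a difference of -0.34 (95% confidence interval -1.27 to 0.59, adjusted p = 0.481). The other 3 tested probes gave differences of -1.15, -1.34 and -1.13, of which the first and second were called (adjusted p over probes = 0.0483 and 0.0363). On Line 13 replicate 1 the brightest probe had a processed signal of 190 and those 3 had 18.9, 8.86 and 7.75. Without that array the 4 tested probes gave -0.64, -0.80, -0.97 and -0.74, and none was called, with adjusted p over probes from 0.0574 to 0.154. With the mean of its probes in place of the brightest, the locus was called lower (-0.99, adjusted p = 0.0428). All 5 probes gave a negative difference, and the fifth was not well above background on any array.

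SLR1 (Os03g0707600), the only DELLA protein of rice with the DELLA motif, rose. It gave 0.74, 0.31 and 0.58 in wild type and 1.84, 1.35 and 1.15 in Line 13. There was no overlap between labels. The rise was 0.90, 1.87-fold (SE 0.25, adjusted p = 0.0210), on a single probe that was well above background on all 6 arrays. With array-median scaling the difference was 0.59 and no longer called (adjusted p = 0.120). That scaling moved the median of all loci by -0.31. The call was also lost on leaving out replicate 2 or 3 of wild type or replicate 2 of Line 13, with adjusted p of 0.0911, 0.0616 and 0.0519, while the difference stayed between 0.71 and 1.05 when any 1 array was left out.

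GID1 (Os05g0407500), the soluble receptor, was not called. Its 3' probe read -3.91, -3.84 and -3.92 in wild type and -2.91, -3.63 and -3.45 in Line 13. These values did not overlap, and the difference of 0.56 missed the threshold (95% confidence interval -0.0034 to 1.13, adjusted p = 0.0835). The 5'UTR+CDS probe of the same locus went the other way, at -0.68 (SE 0.59). On Line 13 replicate 1 the 3' probe had a processed signal of 43.2 and the 5' probe 5.82, whereas on the other 5 arrays the probes read 47.8 to 126 and 53.3 to 92.0. Without that array the difference was 0.35 on the 3' probe and -0.02 on the 5' probe, neither called. The mean of the probes gave -0.06.

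**Figure D4:**
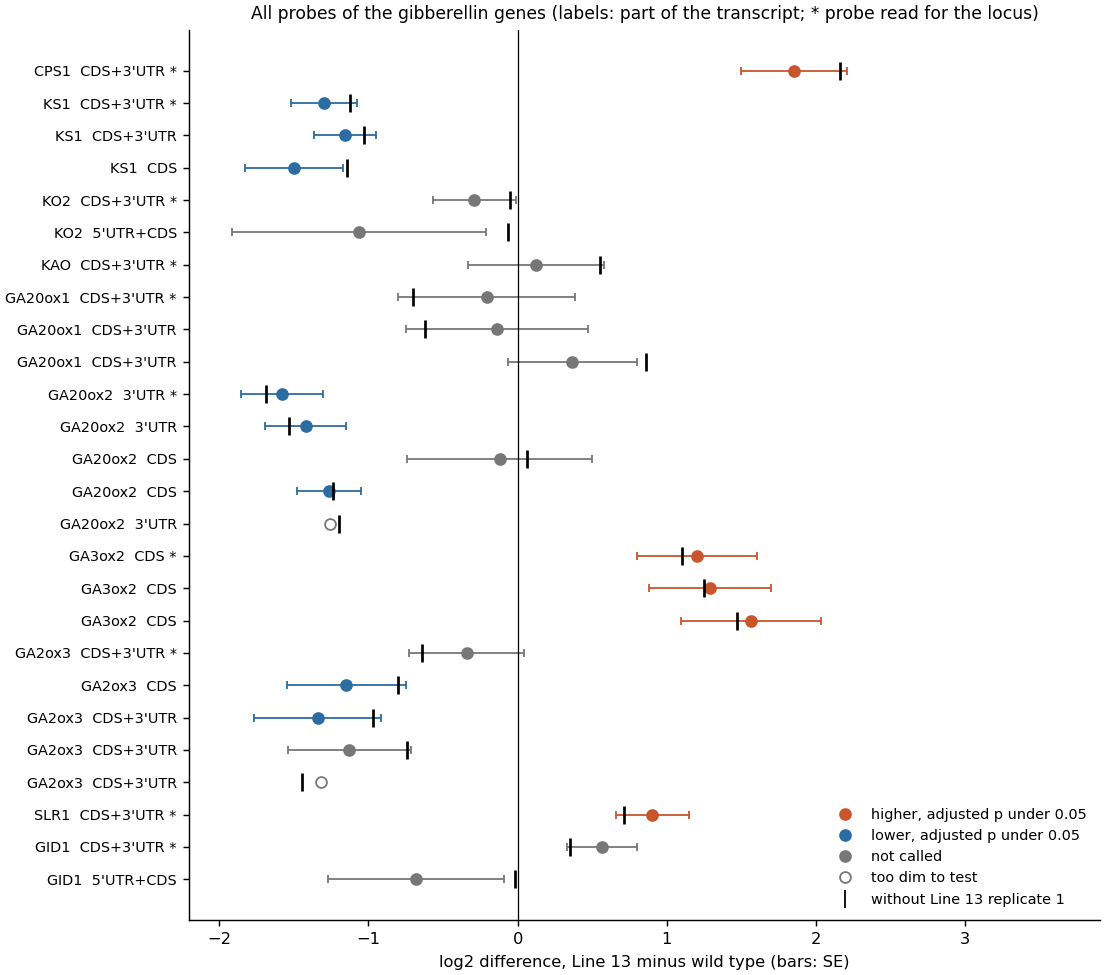
Log2 difference, arrays labelled Line 13 minus arrays labelled wild type, for all 26 probes of the 10 gibberellin genes, with SE bars from the fit of all 33368 tested probes. Row labels give the part of the transcript named in the probe's identifier, stars mark the probe read for the locus, open symbols are 2 probes too dim to test, and black ticks show the value without Line 13 replicate 1, which moves the 5'UTR+CDS probes of KO2 and GID1 from -1.06 and -0.68 to near 0.

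Over single probes, 24 of 26 were tested, and 5 were higher and 8 lower, beside 26.1% and 28% of all 33368 probes tested, or 54.1% in either direction. Without Line 13 replicate 1 the numbers were 3 and 6 of 24, and the 3 include the dimmest GA20ox1 probe, newly called higher (0.86). The shares of all probes called without that array are not given here. Over all loci 29.9% were called higher without it. CPS1, KS1, GA20ox2 and SLR1 kept called probes without that array, and the GA3ox2 and GA2ox3 probes did not. By the probe read for each of the 10 loci, that array held the lowest Line 13 value in 4 (CPS1, KS1, KO2 and KAO). It held the highest in the other 6. On these probes the first 4 enzymes of the pathway were low there and the later enzymes and signalling genes high. The second probes of GA20ox1, GA20ox2 and GA3ox2 were also highest there. The other 3 tested GA2ox3 probes (-4.11, -5.20 and -5.39), the GID1 5' probe (-5.81) and the dimmest GA20ox1 probe (-3.90) were lowest there. So was a coding probe of GA20ox2, narrowly, at -6.04 against -6.02 and -5.91 on replicates 2 and 3. This order thus depends on the probe. The share of all loci with their lowest or highest Line 13 value on that array is not given here, so the order only describes 1 array. The part of the difference between transcript regions in this order was not tested.

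**Figure D5:**
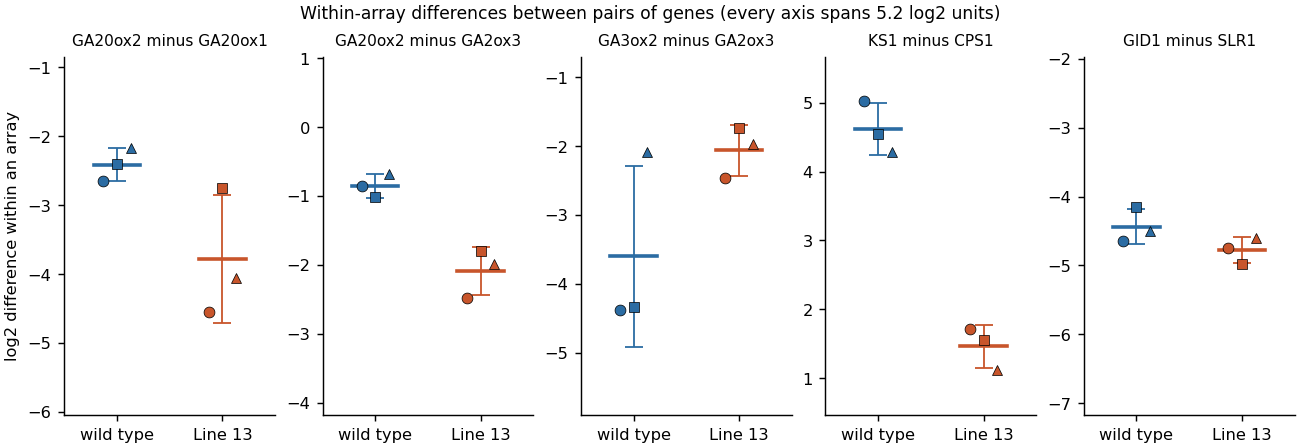
Log2 difference between the signals of a pair of gibberellin genes within each array, for arrays labelled wild type (blue) and Line 13 (orange). Each gene is read from its brightest probe, and circles, squares and triangles are replicates 1, 2 and 3, with mean and SD. The labels do not overlap for GA20ox2 minus GA20ox1, GA20ox2 minus GA2ox3 and KS1 minus CPS1.

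Differences between genes within an array do not depend on a constant scale per array. They were compared for 5 pairs, by exact two-sided permutation tests that cannot go below p = 0.1, with p-values adjusted over the 5 pairs. KS1 minus CPS1 was 5.02, 4.54 and 4.29 in wild type and 1.72, 1.56 and 1.11 in Line 13. The shift of -3.15, 8.90-fold in the ratio, was the largest of the 5 pairs (exact p = 0.1, adjusted p = 0.167). It was -1.74 under the normexp background correction, whose offset of 50 shrinks the log2 differences of dim signals. The KS1 minus CPS1 difference was thus smaller on every Line 13 array than on every wild-type array. CPS1 was dim, passed the filter through the Line 13 arrays alone and did not clear background on 1 wild-type array. The size of this shift is therefore uncertain.

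GA20ox2 minus GA2ox3, a synthesis enzyme set against an inactivating one, was -0.86, -1.02 and -0.68 in wild type and -2.48, -1.80 and -1.99 in Line 13. The shift was -1.24 (exact p = 0.1, adjusted p = 0.167) with no overlap. It rests on the brightest GA2ox3 probe. With the mean of each locus's tested probes the shift was -0.11 and the labels overlapped (exact p = 0.9, adjusted p = 0.9). GA20ox2 minus GA20ox1 shifted by -1.37 without overlap (exact p = 0.1, adjusted p = 0.167). GA3ox2 minus GA2ox3 shifted by 1.54, but wild-type replicate 3, at -2.09, lay inside the Line 13 range of -2.47 to -1.74 (exact p = 0.2, adjusted p = 0.2). With the mean of probes that shift was 2.34 and the labels did not overlap (exact p = 0.1, adjusted p = 0.167). GID1 minus SLR1 shifted by -0.34 with overlap (exact p = 0.2, adjusted p = 0.2), and by -0.96 with the mean of probes, still overlapping. None of the 5 shifts can pass a threshold of 0.05 in a design of 3 against 3 arrays.

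Among 18 other genes of the pathway, 17 had a probe, 9 were bright enough to be tested, and 2 were higher and 1 lower, beside 26.8% and 28% of all loci. Of 10 other enzymes on the array listed here for inactivation, among them CYP714B1 and CYP714B2, 4 were tested. GA2ox1 (Os05g0158600), a 2-oxidase, cleared background on no wild-type array and was at least 2.66-fold higher on the arrays labelled Line 13 (adjusted p = 0.00116), with processed signals of 9.31, 55.4 and 12.3 there. Its second probe could not be tested. GA2ox8 (Os05g0560900) and GA2ox6 (Os04g0522500) had differences of 0.89 (SE 0.60) and 0.74 (SE 0.89) and were not called. Without Line 13 replicate 1, GA2ox6 (1.72, adjusted p = 0.0336) and a further 2-oxidase, GA2ox4 (Os05g0514600, at least 5.38-fold, adjusted p = 0.000695), were also called higher. That made 4 of 12 tested, near the 29.9% of all loci called higher without that array. GA2ox4 cleared background on no wild-type array and could be tested only through the Line 13 arrays, so the filter fixed its direction. It had processed signals of 51.7 and 64.9 on Line 13 replicates 2 and 3 and 1.79 on replicate 1. With a filter that asks for signal on all 6 arrays, 0 of the other genes were called higher by limma, of 4 tested. That filter leaves out GA2ox1 and SLRL1, as neither cleared background in wild type, so it could not call them. Under the normexp background correction 0 of 9 were called higher. Its added offset of 50 shrinks the log2 differences of dim signals, so it cannot decide on GA2ox1 or SLRL1. In both settings 0 had a higher value at an unadjusted p under 0.05.

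Other synthesis genes were mostly too dim. GA3ox1 (Os05g0178100) and GA20ox3 (Os07g0169700) were not well above background on any array. GA20ox4 (Os05g0421900) read -3.99, -3.88 and -4.02 in wild type and -6.64, -5.82 and -3.56 in Line 13. Its Line 13 values enclosed the wild-type ones, and it was not called with all arrays (-1.38, SE 0.74, adjusted p = 0.158). Without Line 13 replicate 3 it was called lower (-2.27, adjusted p = 0.00254), having passed the filter through the wild-type arrays alone.

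All 4 other signalling genes were tested. GAMYB (Os01g0812000), the transcription factor that acts downstream of SLR1 in cereal aleurone and anther, fell. It gave -0.80, -0.72 and -0.54 in wild type and -2.0, -1.99 and -1.88 in Line 13. The labels were far apart against their spread, with a difference of -1.27 (SE 0.17, adjusted p = 0.00150), and all 5 probes of the locus were called lower, from -1.61 to -0.97. SLRL1 (Os01g0646300), an SLR1-like repressor that lacks the DELLA motif, was not well above background in wild type and was at least 3.40-fold higher (adjusted p = 0.00764). GA2ox1 and SLRL1 passed the filter through the Line 13 arrays alone, so it fixed their direction. SPY (Os08g0559300), a glycosyltransferase that restrains gibberellin responses, read -0.06, -0.08 and -0.18 against 1.08, 0.26 and 0.16, without overlap, a difference of 0.61 that was not called (adjusted p = 0.109). The locus listed for the F-box protein GID2, Os02g0580300, was chosen for mention after its values were seen. It carried 7 probes, made from several cDNAs, of which 2 were called lower, and the reference gene table gives both GID2 and the 14-3-3 name GF14E to 1 gene, so its values are uncertain.

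The nearest patterns among the 19 tested gibberellin genes were found by the root mean square difference of log2 values, each centred on its own mean over the 6 arrays. KS1 lay nearest GAMYB, at 0.19, and GA20ox2 also lay nearest GAMYB, at 0.40. SLR1 lay nearest SPY, at 0.22. GA3ox2 lay nearest SLR1, at 0.46, and CPS1 lay nearest GA3ox2, at 0.62. These distances are descriptions over 6 arrays that fall into 2 separate sets.

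The tissue was checked against marker genes of leaf blade photosynthesis, dividing cells, shoot meristem and stem, and root. All 8 photosynthesis markers were well above background on all 6 arrays. Their summed level, in multiples of the 75th percentile of the array, was 1401 to 1943 on the wild-type arrays and 668 to 1183 on the Line 13 arrays. Of the 8, 4 were called lower, beside 28% of all loci. The other 4 were not called, with differences of 0.43 (CAB2R), 0.0031 (RBCS-b) and -0.61 (RBCS and CAB1R each). All 4 markers of dividing cells were called higher, beside 26.8% of all loci, with a sum of 0.492 to 0.765 against 5.92 to 10.6. CYCB2;2 and MCM6 cleared background on no wild-type array. Class I KNOX genes, which mark shoot meristems and stems, summed to 0.0425 to 0.101 against 0.0792 to 1.22. Of these 5 genes, 3 were tested and 2 were called higher, and OSH15, OSH6, OSH43 and OSH71 did not clear background in wild type either. On Line 13 the KNOX sum was 0.50, 1.22 and 0.0792 on replicates 1 to 3. On the same arrays the probe read for GA20ox2 gave -3.25, -3.53 and -3.63. The 2 tested coding probes of that locus gave -4.89, -3.15 and -5.54, and -6.04, -6.02 and -5.91. Both root markers, RCc2 and RCc3, had higher values, with a sum of 0.00743 to 0.0145 against 24.5 to 29.5, and neither cleared background in wild type. The Line 13 sum came almost wholly from RCc2, with log2 values of 4.70, 4.60 and 4.88. RCc3 was far dimmer, at -4.50, -1.88 and -5.96, with processed signals of 14.4, 423 and 15.0. Of the 17 markers tested, 7 passed the filter through the Line 13 arrays alone (CYCB2;2, CDKB2;1, MCM6, OSH43, OSH71, RCc2 and RCc3), which fixed the direction of a call, so for them the levels are a description. The part of these cell types in the gibberellin differences was not tested.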

How the data were processed

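RNA from 6 samples, 3 labelled wild type and 3 labelled Line 13, was measured on 1 array each. Per the labels' protocols, Cy3 targets made from 100 ng total RNA were hybridised at 65 °C over 17 h. Per the file headers, Agilent Feature Extraction 10.10.1.1 gave the deposited processed intensity, subtracted for background and detrended within the array. The authors' deposited value table holds the same intensity times a constant per array, 1.61 to 7.66, with uncentred column medians of 395.65, 426.55 and 412.25 (wild type) and 494.5, 554.8 and 561.45 (Line 13). The sources used here do not explain these constants. Nothing says whether the pools came from separate sowings, so p-values measure only the spread between these samples. Precision is limited by having 3 arrays a label.

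After division by each array's 75th percentile over non-control spots, log2 processed intensity went into limma 3.58.1 (R 4.3.3; lmFit, eBayes, no block), and p-values were adjusted over 22139 loci and 93 probes without a locus at a threshold of 0.05. Control spots, outlier spots and 48 probes for no gene were not used. Testing required a probe to be well above background on all 3 arrays of a label, and the brightest tested probe stood for a locus. Where a probe was above background on no array of a label, the fold is a bound against the lowest signal of any probe above background, or its own. Loci came from the array's identifiers. Names are general knowledge, and 7 of the 10 occur in the RefSeq gene table (ASM3414082v1) on the chromosome that the identifier gives. Tables were made with Python 3.11.15. The fit was tested on simulated data.

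The members, the other gibberellin genes, the marker lists and the gene pairs were chosen with earlier results of these data known. Named genes were all 10 members, the other pathway genes called and up to 3 per role with the smallest p, and markers. GA2ox4, GA3ox1, GA20ox3 and the GID2 locus were named after their values were seen. The comparison of transcript regions and the probe fit without Line 13 replicate 1 were chosen after seeing the data. The normexp alternative used the median spot signal, as no mean signal column was in the files, and an offset of 50. Alternatives were other scalings, the authors' table, other background and dim-probe handling, other probe rules, a replicate block and leaving out each array.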

Additional observations from a re-analysis of the deposited data

How the results depend on the processing

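KS1 and GA20ox2 kept their direction and their call in all 16 alternatives. CPS1 was called in 15, but it entered the filtered fits through the arrays where it was high, and a filter on all 6 arrays leaves it out. The number of members called higher was 1 with array-median scaling and 1 to 2 when 1 array was left out, with 1 on leaving out replicate 2 of either label. The number called lower stayed at 2 to 3, and the members' median ran from -0.36 to 0.26. Array-median scaling shifted the median of all loci by -0.31 and quantile normalization by -0.18, and the share of calls that were higher went from 48.9% to 36.0% under the former. Over all loci, 3792 were higher with a filter on all 6 arrays, 9354 probes were lower when every probe was fitted, and leaving out 1 array gave 4700 to 7085 higher and 4066 to 7507 lower (4066 without wild-type replicate 2). Other pathway genes called higher numbered 0 under normexp, with its offset of 50, and under the filter on all 6 arrays. That filter left only 4 to test, without GA2ox1 and SLRL1. When 1 array was left out, 2 to 4 were called higher. Those called lower numbered 1 to 2. The pair shifts were -2.71 for KS1 minus CPS1 and -0.96 for GID1 minus SLR1 under quantile normalization, and -0.73 for GA20ox2 minus GA2ox3 and -1.74 for KS1 minus CPS1 under normexp. With the mean of probes they were -0.11 for GA20ox2 minus GA2ox3 and -0.96 for GID1 minus SLR1. Pair values were not refitted with the block, the dim-probe filters or every probe, none of which alters the arrays' values. Member probes called higher numbered 3 without Line 13 replicate 1, with the dimmest GA20ox1 probe newly among them, against 5. Signs turned only for genes that were not called: KAO (-0.19 with array medians, -0.29 with quantiles, and -0.37 to 0.55 when 1 array was left out), GA20ox1 (0.0068 with the mean of probes, and -0.70 to 0.34 when 1 array was left out) and GID1 (-0.0594 with the mean of probes). The cause was not tested. Same-numbered arrays did not deviate together, with correlations of 0.11, -0.03 and -0.0048, and 2 of 6 arrays lay nearest their own number. With the replicate block 2 members were higher and 2 lower, GA3ox2 had an adjusted p of 0.0650, and 5512 loci were higher and 5388 lower. Slide and scan could not be blocked, as each held 1 label. Dim signal limits CPS1, GA3ox2 and most of the 2-oxidase genes.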
